A study of Arabidopsis thaliana with 6 samples.

Results

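The floral repressor gene FLC and 6 genes of the autonomous flowering pathway were followed through their poly(A) sites in Arabidopsis thaliana seedlings after light and after continued darkness. The pathway genes are FCA (AT4G16280), FPA (AT2G43410), FLK (AT3G04610), LD (AT4G02560), FVE (AT2G19520) and FLD (AT3G10390), and FLC is AT5G10140. They were chosen by name, with earlier results of these data known. A poly(A) site is given here as a deposited cluster of read ends, by chromosome, strand and position. Clusters on a gene's own strand, inside its span or up to 200 nt past its 3' end, gave 109 sense clusters for the 7 genes. A further 10 clusters lay on the opposite strand inside the spans. The whole table holds 217870 clusters, and the 7 genes are among 18409 protein-coding nuclear genes whose strand could be read from the data.

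Wild-type seedlings of the Columbia accession (Col 0), 1 to 2 weeks old and grown in constant white light, were all first kept in darkness for 48 h. The Light group (3 libraries) then received light for 6 h, and the Dark group (3 libraries) stayed in darkness for the same 6 h. Whole seedlings were used, so every level is a mean over organs, and fewer cells that express a gene cannot be told apart from less RNA per cell. The labels do not say whether the 3 replicates of a group came from separate plants, and the p-values therefore measure the spread among these libraries alone, which may be technical. The libraries were made with 3'READS+, a method that sequences the junction between a transcript's body and its poly(A) tail, so that each read marks 1 transcript end and its strand.

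The autonomous pathway promotes flowering by keeping FLC, a MADS-box repressor of the flowering genes FT and SOC1, at a low level in plants of every day length. FCA, FPA and FLK are RNA-binding proteins, FLD is a histone demethylase-like protein, LD a homeodomain protein and FVE a WD-repeat protein of the MSI1 family. FCA and FPA are known to act at poly(A) sites, among them those of COOLAIR, the antisense RNA of FLC, and each is known to limit its own full-length messenger RNA by favouring a poly(A) site in an intron near its own 5' end. Columbia carries an inactive allele of FRI, the main activator of FLC.

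Library totals ran from 13.2 to 14.5 M reads, and 97.1% of all reads fell in 18216 protein-coding genes. No library duplicated another: replicate pairs differed by 6.48 to 28.7 times the sampling noise (chi-square per degree of freedom), most between Dark replicates 1 and 2. Levels are in CPM, reads per M reads of library size after TMM scaling, the trimmed-mean normalization of edgeR. That scaling set the median change of all genes at 0.04 on the log2 scale (Light minus Dark); with library totals alone it was 0.50, so directions below are relative to the bulk of genes. Of 16 marker genes of leaf, epidermis, phloem, root, meristem, flower and seed, 10 could be tested, and 5 of them were higher and 3 lower in Light. The summed level of the 16 was 14683 to 16776 CPM in Light and 4508 to 6108 CPM in Dark, most of it from the leaf gene RBCS1A and the root gene PYK10. The root gene COBL9 had 1 read in all. WUS was at 0 reads, and the floral genes AP3 and AG had 17 and 4 reads in all, while the floral gene PI had 55.6 ± 10.7 CPM (SD, n = 3) in Light and 276 ± 143 CPM (SD, n = 3) in Dark. Of 211 reads of the seed storage genes CRA1 and SESA3, 203 came from Light replicate 1. The part of these marker differences in the results below was not tested, except where values without Light replicate 1 are given.

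All 7 genes had enough reads to be tested. FCA, FPA and FLC were lower in Light than in Dark, FVE and LD were higher, and FLK and FLD did not pass the test. That is 5 of 7 genes, or 71.4%, where 72.9% of the 16775 genes tested passed the threshold of 0.05 (37.4% with more and 35.6% with less in Light), so the share of changed genes was close to that of all genes. Over all genes 6267 were higher and 5966 lower in Light, and with library totals alone 8626 were higher and 4014 lower. The values below come from edgeR's quasi-likelihood test with Benjamini-Hochberg adjustment over all genes, and fold changes are fitted.

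FCA had the largest difference of the 7. Its level was 18.5, 19.7 and 19.0 CPM in the Light libraries and 138, 99.5 and 123 CPM in the Dark libraries. Every Dark library held more than 5 times the level of any Light library. The means were 19.1 ± 0.592 and 120.3 ± 19.5 CPM (SD, n = 3 each), 6.31-fold higher in Dark (log2 change −2.66, SE 0.134, adjusted p = 6.01e-10, edgeR). FPA, which acts beside FCA at poly(A) sites, stood at 27.7, 31.1 and 38.3 CPM in Light and 68.0, 79.5 and 81.6 CPM in Dark. Its groups also did not overlap, and it was 2.36-fold higher in Dark (log2 change −1.24, SE 0.134, adjusted p = 1.29e-06, edgeR).

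FLK, a protein with KH-type RNA-binding domains, had 19.6, 18.9 and 13.4 CPM in Light and 18.5, 11.6 and 15.4 CPM in Dark. The groups overlapped, and the log2 change was 0.19 (95% interval −0.18 to 0.56, adjusted p = 0.371, edgeR). Scaled by library totals alone, FLK was higher in Light (log2 change 0.64, adjusted p = 0.0112, edgeR). The 2 RNA-binding genes FCA and FPA thus differed between the groups by more than the spread of their libraries, and the call on FLK depended on the scaling.

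LD was measured at 7.56, 6.07 and 7.89 CPM in Light and 4.38, 4.29 and 5.17 CPM in Dark, without overlap. It was 1.55-fold higher in Light (log2 change 0.64, SE 0.196, adjusted p = 0.00961, edgeR). FVE, a subunit of histone-modifying complexes, reached 149, 164 and 130.02 CPM in Light and 55.1, 50.6 and 45.3 CPM in Dark. Every Light library of FVE was more than 2 times any Dark library, and the fitted difference was 2.94-fold (log2 change 1.55, SE 0.122, adjusted p = 4.48e-08, edgeR).

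FLD was close to the limit of what these libraries can count, with 17, 14 and 18 reads in Light and 18, 22 and 20 reads in Dark. In CPM the groups did not overlap (0.944 to 1.16 in Light, 1.58 to 1.92 in Dark), which also held for 75.7% of all genes tested. The log2 change was −0.67 (95% interval −1.30 to −0.05 from the standard error alone, adjusted p = 0.0708, edgeR), so at this depth the difference did not pass the test.

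FLC itself had 56.5, 59.3 and 64.0 CPM in Light and 95.7, 151 and 141 CPM in Dark. Dark replicate 1 was the lowest of the Dark libraries and still above every Light library. FLC was 2.15-fold higher in Dark (log2 change −1.11, SE 0.150, adjusted p = 1.27e-05, edgeR). With library totals alone FCA, FPA and FLC stayed lower in Light (log2 changes −2.21, −0.78 and −0.64), FVE and LD stayed higher (2.01 and 1.09), and the FLD change shrank to −0.22 (adjusted p = 0.538, edgeR). Leaving out each library in turn ended none of the 5 calls.

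**Figure D1:**
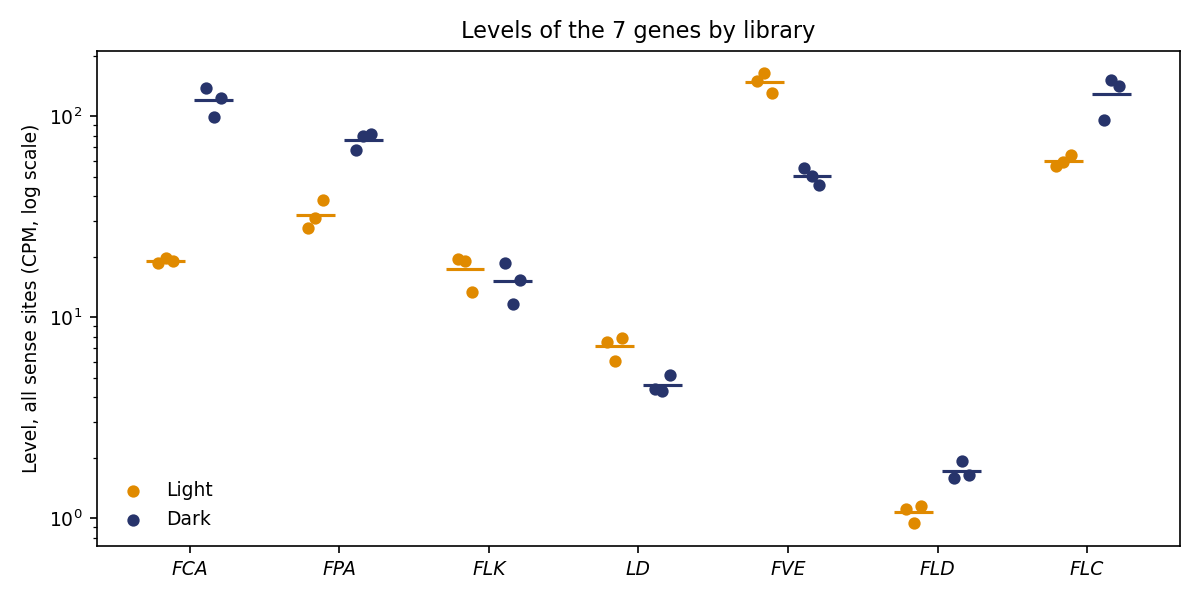
Level of each gene (CPM over all its sense clusters, log scale) in the 3 Light and 3 Dark libraries; each point is 1 library and each bar is the group mean. The FCA points lie near 19 CPM in Light and between 99.5 and 138 CPM in Dark, while the FLK points of the groups overlap.

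The genes differed in where along their length the reads ended. FVE had all 12 of its clusters in the last 326 nt of its span or just past it, and none before the midpoint of the span. FLK, LD and FLD had 1, 1 and 2 reads before the midpoint, and FLC 47 of 7272. In FCA 3988 of 5087 reads, and in FPA 983 of 4161, ended before the midpoint. Exon and intron positions were not used here, so these sites are given by distance from the annotated gene start and are not assigned to an intron. The groups of neighbouring sites used below for FCA and FPA were drawn after their positions and values had been seen.

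FCA lies on the minus strand of chromosome 4 and spans 8385 nt. Most of its 28 sites fell into 3 groups: 7 early sites from 1649 to 1927 nt after the start (19.7 to 23.0% of the span), 3 inner terminal sites from 467 to 397 nt before the annotated end, and 12 outer terminal sites from 344 nt before the end to 72 nt past it. The other 6 sites had 12 of the gene's 5087 reads. The early group carried 14.4, 16.4 and 16.7 CPM in Light and 113, 69.5 and 96.6 CPM in Dark. It held most reads of the gene in every library, 83.0 ± 5.02% in Light against 76.6 ± 6.00% in Dark (SD, n = 3 each). This share overlapped between the groups (exact two-sided permutation p = 0.3; the smallest p that 3 against 3 allows is 0.1).

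The main early site of FCA, at position 9213203 and 1778 nt from the start, had 168, 209 and 198 reads in Light and 1128, 697 and 1036 in Dark. Its level was 6.49-fold higher in Dark (log2 change −2.70, SE 0.170, adjusted p = 9.07e-12, edgeR on the reads of each cluster). Its share of the gene's reads was 65.9 ± 6.27% in Light and 67.3 ± 5.36% in Dark, and the test of site usage within the gene (edgeR's diffSpliceDGE) gave an adjusted p of 0.767. This test sets the log2 change of a site against that of all tested sites of its gene. A site that holds most of the reads can therefore fail it although its share differs. The site and the gene as a whole thus differed by similar factors. A smaller early site 31 nt closer to the start, at position 9213234, held 9.84 ± 2.39% of reads in Light and 5.61 ± 1.13% in Dark (adjusted p = 0.0206, diffSpliceDGE). Its share was higher in Light although its level, like that of the main site, was lower there (log2 change −1.87, adjusted p = 4.22e-06, edgeR).

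The inner terminal sites of FCA moved most. They carried 1.63, 1.28 and 1.03 CPM in Light and 21.1, 25.1 and 22.9 CPM in Dark, a ratio of the group means of 17.6. Nearly all of it was the site at position 9207064, 467 nt before the annotated end, with 20, 19 and 15 reads in Light and 237, 285 and 266 in Dark. Light and Dark counts at this site were more than 10 times apart in every pair of libraries. The level was 18.9-fold higher in Dark (log2 change −4.24, SE 0.209, adjusted p = 1.67e-13, edgeR), and the site's share was 6.21 ± 1.02% in Light and 19.3 ± 5.19% in Dark (adjusted p = 2.35e-04, diffSpliceDGE).

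The outer terminal sites of FCA, nearest the annotated gene end, differed much less. They summed to 2.48, 2.02 and 1.28 CPM in Light and 4.30, 4.199 and 3.61 CPM in Dark, a ratio of 2.09, and their share was 10.1 ± 3.31% in Light and 3.42 ± 0.700% in Dark. The strongest of them by reads, at position 9206740 and 143 nt before the end, was lower in Light in level (log2 change −1.31, adjusted p = 0.0123, edgeR) but higher in share, 2.65 ± 1.11% against 1.05 ± 0.220%. That share passed the test only when sites down to 1% of the gene were admitted (adjusted p = 0.0295, diffSpliceDGE), and with library totals alone its level did not pass (log2 change −0.86, adjusted p = 0.0913, edgeR). Within the 3' end of FCA, the inner sites had 0.697 ± 0.0900 times the reads of the outer sites in Light and 5.75 ± 0.739 times in Dark. Transcripts ending near the annotated end thus kept a ratio of roughly 2 between Dark and Light, while those ending at position 9207064 differed many times more. The inner sites at positions 9207031 and 9206994 had only 16 and 9 reads in all. The inner and outer groups were drawn after these values were seen, so their contrast is descriptive and was not tested.

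**Figure D2:**
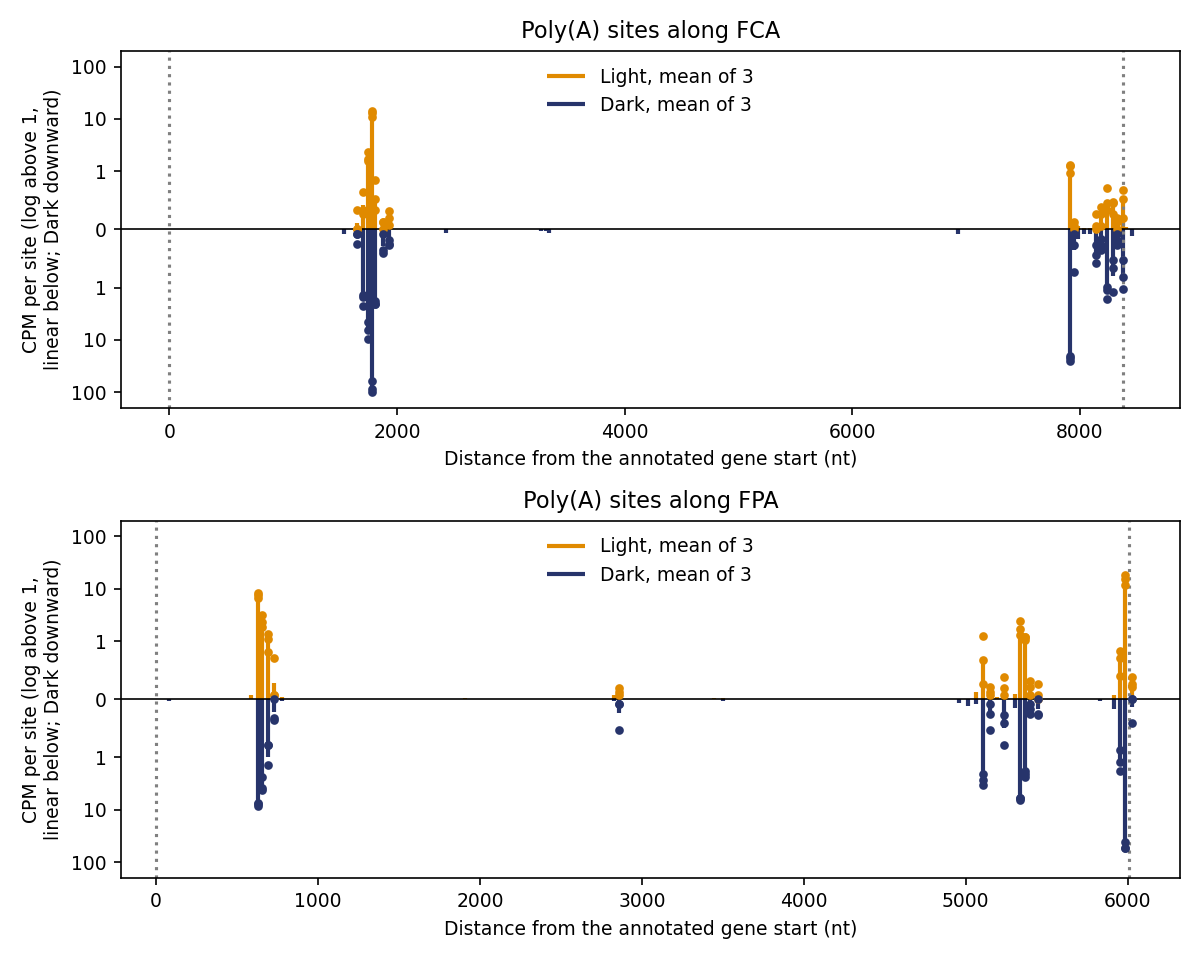
Mean level of every sense cluster of FCA and FPA along the gene (distance from the annotated start in nt, dotted lines at start and end), Light upward and Dark downward, in CPM on an axis that is linear below 1 and logarithmic above; points are single libraries at sites with at least 10 reads. In FCA the early group at 1649 to 1927 nt is the tallest in Light and Dark, and in FPA the early group at 629 to 727 nt is about as tall in Light as in Dark.

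FPA lies on the minus strand of chromosome 2 and spans 6009 nt. Its 4 early sites, 629 to 727 nt after the start (10.5 to 12.1% of the span), carried 10.3, 10.5 and 13.03 CPM in Light and 12.5, 12.7 and 12.6 CPM in Dark. These groups overlapped, with means of 11.3 ± 1.53 and 12.6 ± 0.124 CPM (SD, n = 3 each). The 4 sites at the gene's end, from 94 nt before it to 16 nt past it, carried 12.8, 15.98 and 19.6 CPM in Light and 43.0, 54.3 and 55.6 CPM in Dark, without overlap and with a ratio of 3.16. A group of 11 sites between 994 and 564 nt before the end also had a lower level in Light, 4.60 ± 0.629 against 12.4 ± 0.766 CPM. The other 10 sites had 32 of 4161 reads. The lower level of FPA in Light was therefore carried by the sites near its 3' end.

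The share of FPA reads that ended early was 34.9 ± 1.95% in Light and 16.6 ± 1.52% in Dark. The main early site, at position 18030626 and 629 nt from the start, had 100, 114 and 127 reads in Light and 86, 89 and 104 in Dark. Its share was 23.2 ± 1.75% against 10.5 ± 0.653% (adjusted p = 3.80e-05, diffSpliceDGE), while its level had a log2 change of −0.09 (SE 0.184, adjusted p = 0.662, edgeR), or 0.36 with library totals alone (adjusted p = 0.0895, edgeR). The neighbouring early site at position 18030599 also had a larger share in Light, 7.53 ± 1.28% against 4.55 ± 1.42% (adjusted p = 0.0359, diffSpliceDGE). The main end site, at position 18025270 and 23 nt before the annotated end, had 180, 227 and 286 reads in Light and 479, 604 and 648 in Dark. Its level was 3.26-fold higher in Dark (log2 change −1.70, SE 0.162, adjusted p = 6.63e-09, edgeR), and its share was 46.5 ± 3.65% in Light and 64.5 ± 2.40% in Dark. The site did not pass the usage test by itself (adjusted p = 0.0996, diffSpliceDGE). That test compares it with a gene-wide change to which it contributes most reads, so the result does not show equal shares.

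The early sites of FPA together had 0.708 ± 0.0852 times the reads of the end sites in Light and 0.250 ± 0.0344 times in Dark. A long noncoding RNA gene, AT2G09470, overlaps FPA by 412 nt, and its strand is not given. The 7 FPA clusters inside that overlap summed to 1.25 CPM in Light and 3.76 CPM in Dark, and none of them is an early or an end site. Except for the cluster 1051 nt before the end, they belong to the group of sites 994 to 564 nt before it. That group summed to 4.60 CPM in Light and 12.4 CPM in Dark. Whether some of its reads come from AT2G09470 was not tested.

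To compare upstream ends over all genes, reads more than 400 nt before a gene's reference site (the last cluster along the gene to hold 10% or more of its reads) were set against the rest. Of 826 genes that could be tested this way, 49.4% passed, 32.4% with a higher upstream share in Light and 16.9% with a lower one. In FPA the upstream share was 50.4 ± 3.01% in Light and 33.4 ± 2.81% in Dark (adjusted p = 1.36e-04, diffSpliceDGE). In FCA it was 83.0 ± 5.02% and 76.9 ± 5.70% (adjusted p = 0.0775, diffSpliceDGE), which did not pass. Without Light replicate 1 the FCA difference was 8.65 percentage points (adjusted p = 0.0252, diffSpliceDGE) and without Dark replicate 1 it was 8.43 points (adjusted p = 0.0227, diffSpliceDGE). Without Dark replicate 2 it was only 2.91 points and without Light replicate 3 only 3.64 points (adjusted p = 0.350 and 0.450, diffSpliceDGE), so single libraries decided both its size and its call.

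The FCA value also turned with the choice of reference. Measured from the annotated gene end, the inner terminal site counts as upstream, and the upstream share became 89.5 ± 3.84% in Light and 96.4 ± 0.650% in Dark, a difference of −6.93 points (adjusted p = 1.05e-05, diffSpliceDGE). The early sites alone had the shares given above in either case. FCA and FPA share a large early group, but their fitted changes there were unlike: the main early site changed 6.49-fold in FCA, and in FPA its level did not pass the test. The difference between the genes was not tested.

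**Figure D3:**
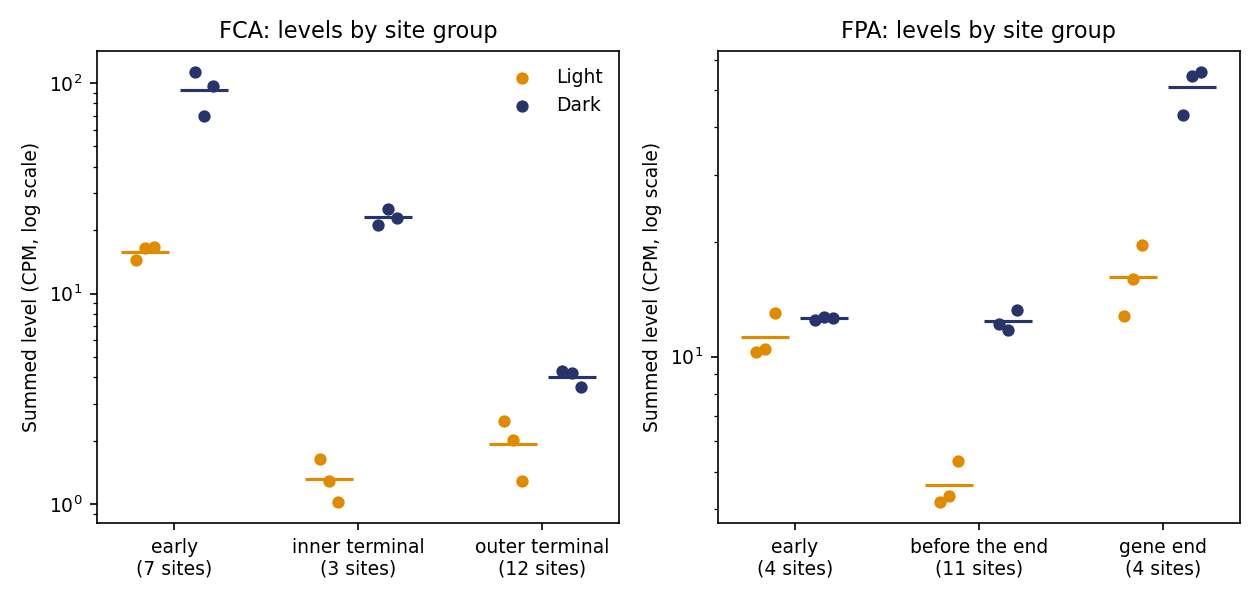
Summed level (CPM, log scale) of the site groups of FCA and FPA in each library; points are libraries and bars are group means. All FCA groups are lower in Light, the inner terminal group most (1.31 against 23.0 CPM), while the early group of FPA overlaps between Light and Dark.

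Site usage could be tested in 6 of the 7 genes, and 4 of them, FCA, FPA, FLK and FVE, passed (adjusted p = 3.14e-04, 6.34e-05, 0.00147 and 0.0231, diffSpliceDGE with Simes' method), where 25.8% of 11009 genes tested passed. FLC and LD did not pass (adjusted p = 0.494 and 1.00, diffSpliceDGE), and FLD had too few reads. Single sites passed in 14.4% of the 29615 sites tested. The changes in FLK and FVE lay close to their annotated ends.

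FLK (chromosome 3, minus strand) ended at 2 main sites that are 51 nt apart. The proximal one, at position 1250617, held 67.9 ± 3.32% of reads in Light and 84.2 ± 2.16% in Dark (adjusted p = 0.312, diffSpliceDGE). As it holds most reads of FLK, that result does not show equal shares. The distal one, at position 1250566 and 13 nt before the annotated end, carried 5.61, 4.92 and 4.24 CPM in Light and 1.67, 1.66 and 1.72 CPM in Dark. It was 2.91-fold higher in Light (log2 change 1.54, SE 0.257, adjusted p = 1.91e-05, edgeR), and its share was 11.5 ± 2.65% in Dark and 28.7 ± 2.80% in Light (adjusted p = 0.00149, diffSpliceDGE). FLK as a whole did not pass the level test, yet its distal site did.

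FVE (chromosome 2, plus strand) was dominated by the site at position 8459475, 167 nt before the annotated end, with 83.8 ± 2.10% of reads in Light and 90.03 ± 1.13% in Dark. A site 50 nt further on, at position 8459525, held 10.6 ± 1.49% in Light and 6.67 ± 1.72% in Dark (adjusted p = 0.0220, diffSpliceDGE), and its level was 4.63-fold higher in Light. The most uneven site of FVE was at position 8459635, 7 nt before the annotated end, with 38, 35 and 53 reads in Light and 0, 1 and 1 in Dark. The ratio of these levels was 48.2 (95% counting interval 13.1 to 402), and the share was 1.91 ± 0.625% against 0.118 ± 0.102%. It entered the usage test only when sites down to 1% were admitted (adjusted p = 1.26e-05, diffSpliceDGE). The gene-level usage call of FVE was lost without Light replicate 2, Light replicate 3, Dark replicate 1 or Dark replicate 3 (adjusted p = 0.0537, 0.121, 0.153 and 0.131, diffSpliceDGE).

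LD (chromosome 4, minus strand) ended at positions 1123492 and 1123541, 17 and 66 nt before its annotated end. They held 38.5 ± 7.08% and 38.6 ± 5.39% of reads in Light and 46.0 ± 3.17% and 44.9 ± 4.75% in Dark, and neither share passed the test. Another site, at position 1123576, held 6.97 ± 2.69% in Light and 2.42 ± 2.14% in Dark, without overlap, and was not tested. The share of all sites without such overlap was not computed. Reads far upstream in LD numbered 8, 7 and 25 in Light and 2, 1 and 2 in Dark. Of the 25 in Light replicate 3, 12 came from a single cluster at position 1125873, so the Light libraries differed among themselves.

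FLD (chromosome 3, plus strand) ended mainly at position 3232488, 43 nt before its annotated end, with 16, 12 and 9 reads in Light and 8, 21 and 18 in Dark. A second site at position 3232453 had 6 reads in Light and 13 in Dark, 10 of the latter in Dark replicate 1. These counts are too small to order the shares. The last 75 nt of FLD overlap the gene AT3G10405 on the other strand.

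FLC (chromosome 5, minus strand) had 3 main sites within 59 nt, at positions 3173533, 3173508 and 3173474, 151, 126 and 92 nt before its annotated end. Their shares were 47.4 ± 1.60%, 11.9 ± 0.561% and 38.7 ± 0.768% in Light and 43.9 ± 1.21%, 15.0 ± 1.26% and 38.2 ± 1.48% in Dark (SD of 3 libraries each). The first was higher and the second lower in share in every Light library than in any Dark library, and the groups overlapped at the last, but none of the 3 shares passed the usage test (adjusted p = 0.842, 0.301 and 0.995, diffSpliceDGE). How many of all sites have shares that separate in this way was not computed. In level all 3 were lower in Light, with log2 changes of −0.99, −1.45 and −1.08. The lower level of FLC in Light was thus spread over its sites, unlike that of FPA, where the early sites did not pass; this contrast was not tested.

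Early ends in FLC were rare but countable. The 5 clusters before the midpoint lay 503 to 979 nt after the start, the most read of them at position 3178945 together with one at 3178469, each with 18 reads in all. Reads upstream of the terminal region numbered 3, 4 and 2 in Light and 9, 14 and 16 in Dark. They made up 0.334 ± 0.128% of FLC reads in Light and 0.857 ± 0.0669% in Dark (adjusted p = 0.0370, diffSpliceDGE). That call was lost without any 1 of Light replicates 1, 2 and 3 and Dark replicates 2 and 3 (adjusted p = 0.0931, 0.0576, 0.184, 0.0541 and 0.108, diffSpliceDGE).

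**Figure D4:**
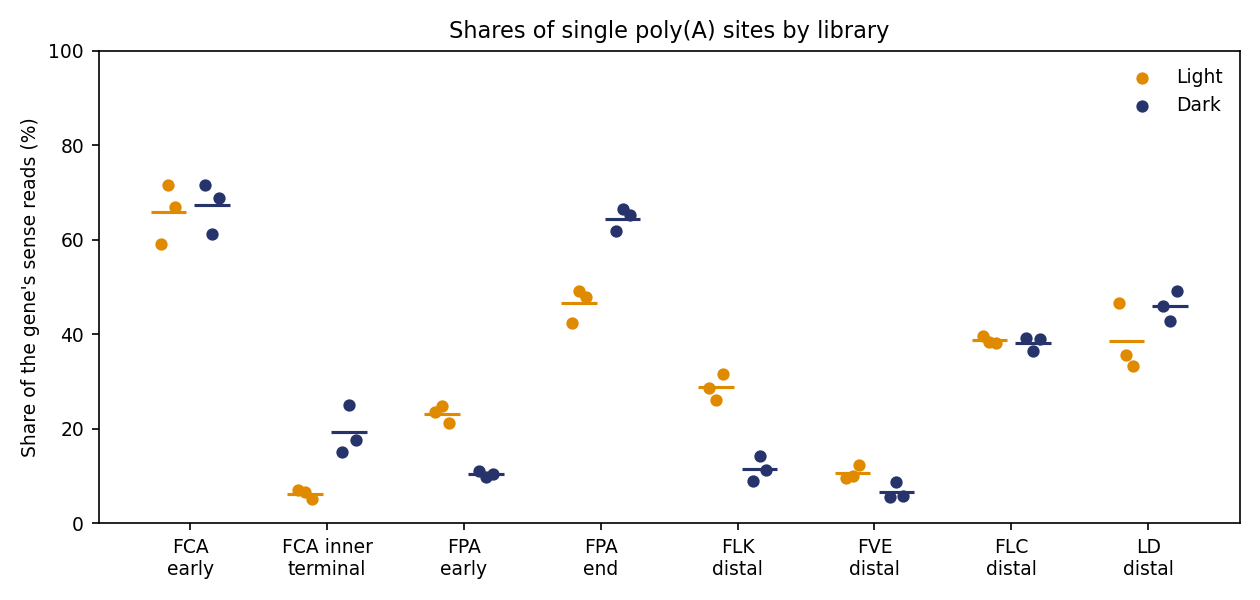
Share of the gene's sense reads (%) at single poly(A) sites in each library; points are libraries and bars are group means. The main early site of FPA and the distal site of FLK take a larger share in Light, the inner terminal site of FCA a smaller one, and the points of the plotted FLC site (position 3173474) and LD site (position 1123492) overlap between the groups.

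Site by site, 29 clusters of the 7 genes had enough reads for a test of their level, where 68.1% of 44590 clusters tested passed. In FCA all 6 tested clusters and in FLC all 4 were lower in Light, and in FVE all 6 were higher. In FPA 5 were lower and 3, the early ones, did not pass. In FLK 1 of 2 was higher, and the 2 tested in LD and the 1 tested in FLD did not pass. With library totals alone 4 of the clusters lower in Light no longer passed, 2 in FPA, 1 in FCA and 1 in FLC, and both LD clusters were higher in Light.

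Antisense reads inside the 7 spans were few. FCA, FLK, LD and FVE had 0 antisense reads in all 6 libraries together, which allows up to 3 reads, and FLD had 1. FPA had 175 antisense reads, 5, 7 and 8 in Light and 52, 50 and 53 in Dark, and was 9.94-fold higher in Dark on that strand (log2 change −3.31, SE 0.339, adjusted p = 9.45e-09, edgeR), where 71.3% of 2814 genes with antisense reads passed, 1024 higher and 981 lower in Light (1385 and 696 with library totals alone). Nearly all came from 1 cluster on the plus strand at position 18025293, 46 nt inside FPA's end, with 169 reads. The neighbouring gene ETFQO, an electron-transfer flavoprotein oxidoreductase of mitochondria, runs on that strand and overlaps FPA by 46 nt, and 3 of the 4 antisense clusters lie within its reach. These ends therefore cannot be told apart from those of ETFQO, whose own level (11.5-fold higher in Dark) includes their 20 Light and 153 Dark reads. Without these shared clusters ETFQO had 0.780 ± 0.441 CPM in Light and 9.74 ± 0.976 CPM in Dark, a ratio of 12.5.

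Antisense reads of FLC were too few for the test in the main setting. COOLAIR starts beyond the 3' end of FLC and is known to end either at proximal sites inside FLC or at distal sites beyond the FLC start. The plus-strand cluster at position 3173949, 567 nt before the FLC end, had 0, 0 and 0 reads in Light and 1, 3 and 6 in Dark. Against a floor of 3 reads over the Light group, its 10 Dark reads gave a level 4.36-fold lower in Light. That value takes the Dark count as exact, so it is not a lower limit. Together with a neighbour at position 3173898, the proximal sites had 1 Light read and 11 Dark reads, so that the Dark level was 14.4 times the Light level (95% counting interval 2.09 to 619). The distal sites, 127 and 152 nt past the FLC start, had 2 Light reads and 7 Dark reads, 4.57 times as many per M in Dark (95% counting interval 0.871 to 45.1). Over all 7 plus-strand clusters of this locus there were 4 Light reads and 20 Dark reads, 6.53 times as many per M in Dark (95% counting interval 2.19 to 26.3). These intervals cover counting error only, and both Light reads of the distal sites came from 1 library.

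The counts do not resolve whether the proximal and distal ends changed unequally. With no filter on low counts, the antisense reads inside FLC had a log2 change of −2.84 (adjusted p = 0.0458, edgeR), from 2 reads in Light and 13 in Dark. FLC sense reads and the few antisense reads at its locus were both more frequent in Dark.

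Other genes of flowering control were read from 5 lists of 67 genes, of which 59 could be tested. Of these, 13 were higher and 18 lower in Light and 28 did not pass, 52.5% past the test against 72.9% of all genes. Their median log2 change was −0.10, against 0.04 over all genes and −0.67 over the 7 genes above. Over all genes tested, 37.4% were higher and 35.6% lower in Light. By list, 40.9% of the tested partners and 37.5% of the FLC activators passed. In the Polycomb, floral repressor and integrator lists 80%, 75% and 66.7% passed.

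Among 22 tested 3' end processing and chromatin partners of the pathway, 6 were higher and 3 lower in Light, with a median log2 change of 0.20; with library totals alone 17 were higher and 1 lower. CPSF100, a subunit of the cleavage and polyadenylation complex, was 2.53-fold higher in Light (24.3 ± 1.73 against 9.61 ± 0.573 CPM), and SKB1, an arginine methyltransferase also called PRMT5, 1.94-fold. AT2G43370, entered on the list as HLP1, was 3.29-fold higher in Dark (6.52 ± 0.747 against 21.5 ± 4.49 CPM, adjusted p = 8.21e-07, edgeR). The gene annotation used here gives no name for this locus, so its identity as HLP1 was not checked. APRF1, a WD-repeat protein, was 2.04-fold higher in Dark, a call that was lost without Light replicate 2 (adjusted p = 0.0536, edgeR) and with library totals alone (adjusted p = 0.131, edgeR). FY, the partner protein of FCA in the cleavage complex, was higher in Light at a low level, 6.63 ± 0.826 against 4.18 ± 1.43 CPM (adjusted p = 0.0273, edgeR).

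Of the 16 FLC activators, 3 were higher and 3 lower, and 10 did not pass (median −0.10); with library totals alone 7 were higher and 2 lower. SUF4, a zinc-finger protein of the FRI complex, had 6.71, 9.17 and 9.24 CPM in Light and 38.3, 28.4 and 35.1 CPM in Dark, 4.05-fold higher in Dark. VIP5, a subunit of the Paf1 complex that accompanies RNA polymerase, was 3.18-fold higher in Dark (12.8 ± 0.963 against 40.6 ± 4.87 CPM). ATX1, a histone H3 lysine methyltransferase, was 2.61-fold and FLX, another member of the FRI complex, 1.89-fold higher in Light. FRI itself, at 2.38 ± 0.875 and 2.65 ± 0.489 CPM, did not pass.

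The Polycomb and vernalization genes, which silence FLC after cold, were divided, with 4 of 10 higher, 4 lower and 2 not past (median −0.10); with library totals alone 5 were higher and 1 lower. VRN5 and VEL1 are related PHD-finger proteins that join the Polycomb complex, and they moved in opposite directions: VRN5 was 2.94-fold higher in Light (26.2 ± 0.928 against 8.89 ± 1.58 CPM), and VEL1 was 2.52-fold higher in Dark (44.9 ± 3.91 against 113 ± 16.05 CPM). FIE, a core Polycomb subunit, was 2.24-fold higher in Light. LHP1, listed as TFL2, was 1.66-fold higher in Dark, which did not pass with library totals alone (adjusted p = 0.195, edgeR). VIN3 was on the list but was not tested, because its strand could not be read from the data. Counted without regard to strand, its span held 1186 reads in Light and 714 in Dark. These reads cannot be assigned to VIN3 itself, so they give neither its level nor its direction.

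The FLC-clade and other floral repressors had the largest median shift of the 5 lists: 6 of 8 tested genes were lower in Light, 0 higher and 2 not past (median −1.02), and with library totals alone 4 were lower and 0 higher. The 75% past the test was close to the 72.9% of all genes, of which 35.6% were lower in Light. TEM1 and RAV2 (TEM2), repressors of FT, were 6.39-fold and 3.09-fold higher in Dark. TEM1 stood at 26.5, 25.6 and 28.1 CPM in Light and at 163, 190.4 and 159 CPM in Dark. SVP, a MADS-box partner of FLC, was 2.36-fold higher in Dark (84.0 ± 6.04 against 198 ± 9.79 CPM). Of the FLC relatives FLM, MAF3 and MAF4 were also lower in Light (log2 changes −0.78, −1.04 and −0.99), and MAF2 and MAF5 had −0.48 and −0.71 without passing. MAF2, MAF3, MAF4 and MAF5 lie side by side and are near copies of each other, so reads could be split between them. FLM, also called MAF1, lies on another chromosome. The listed repressor TFL1 was not tested, and its span held 16 reads in Light and 1 in Dark, counted without regard to strand.

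Of the floral integrators and FLC targets, 3 of 8 could be tested, and 2 were lower in Light and 0 higher; with library totals alone 1 was lower and 1 higher. AGL24, a MADS-box promoter of flowering, was 2.64-fold higher in Dark (11.6 ± 1.18 against 30.7 ± 7.92 CPM). FD, the bZIP partner of FT, was 1.75-fold higher in Dark at 1.09 ± 0.0147 against 1.92 ± 0.466 CPM (adjusted p = 0.0377, edgeR). That call was lost with library totals alone (adjusted p = 0.334, edgeR) and without any 1 library other than Dark replicate 1 (adjusted p = 0.0532 to 0.168, edgeR). SOC1, a direct target of FLC, had 20.6 ± 2.66 and 18.7 ± 3.68 CPM and did not pass (log2 change 0.14, adjusted p = 0.429, edgeR), but was higher in Light with library totals alone (log2 change 0.60, adjusted p = 0.00480, edgeR). FT, which was not tested, had 3 reads in Light and 0 in Dark, counted over its span without regard to strand. SPL15 was not tested either. Counted in the same way it had 463 reads in Light and 193 in Dark, which cannot be assigned to SPL15 itself. TSF, LFY and AP1, also not tested, had 1, 3 and 0 reads in Light and 1, 7 and 2 in Dark by the same count. The tested genes therefore do not give the direction of the whole list.

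**Figure D5:**
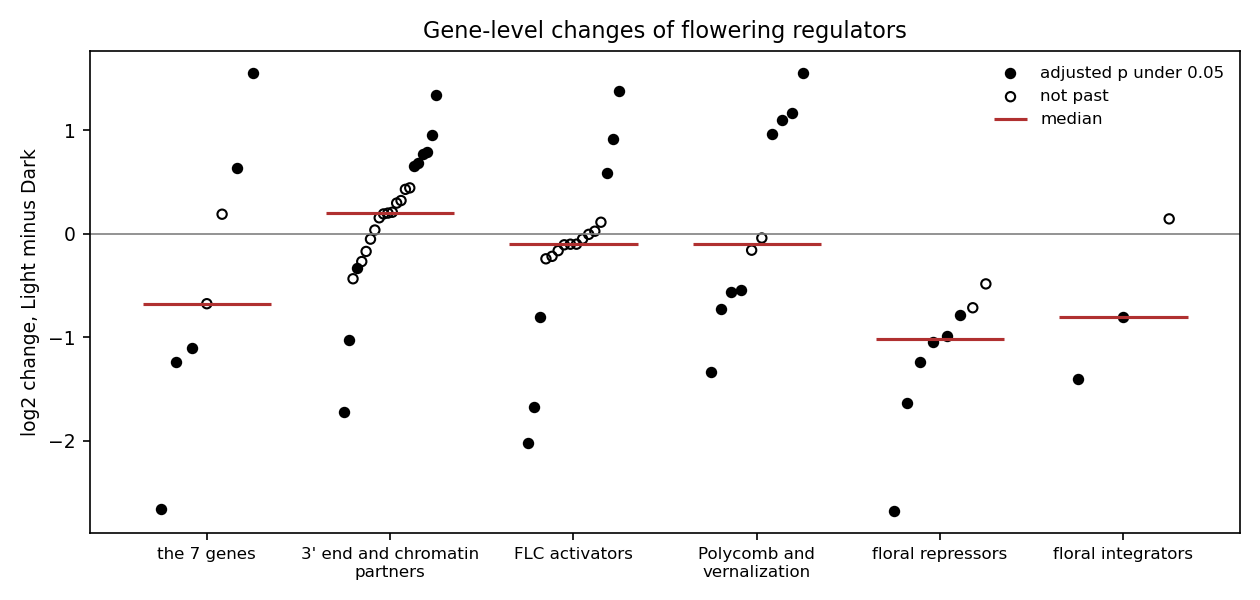
Fitted log2 change (Light minus Dark) of each tested gene in the 7 genes and the 5 lists; filled points passed an adjusted p of 0.05, open points did not, and red bars are medians. The 8 tested floral repressors all lie below 0 on the TMM scale (4 were lower past the test with library totals alone), and the partners, activators and Polycomb genes lie on both sides.

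For each of the 7 genes the 2 tested genes with the most similar profile were found among 16774 others, by the root mean square difference of centred log2 CPM over the 6 libraries. For FCA these were BCA6 (difference 0.0750) and AT2G46900 (0.0858). For FPA they were AT5G44290 (0.0549) and HLS1 (0.0613), and for FLC AT5G18900 (0.0549) and AT1G48745 (0.0634). FVE was closest to VIM1 (0.0538) and YLMG1-1 (0.0540), LD to FEY (0.0380) and AT1G06470 (0.0482). FLK was closest to AT2G31290 (0.0304) and AT5G58300 (0.0698), and FLD to AT1G50140 (0.0254) and AT1G80450 (0.0428). None of the 7 genes or of the 5 lists is among these neighbours. That absence carries little weight, since only 2 neighbours per gene were taken from 16774 others.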

How the data were processed

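Read counts per poly(A) cluster were used as deposited; the submitters' processing notes name Bowtie2 and TAIR10, while for the clustering rule and the read filter the sources used here say nothing. The 3 Light and 3 Dark libraries were mapped by title. Gene spans and names came from a RefSeq table on TAIR10.1 without strand, exons or sequence, so distances pair its gene ends with the file's positions; strand was taken from reads around each gene's ends (at least 20 reads, 90% on 1 strand). Counts were summed per gene and tested with edgeR 4.0.16 (TMM, filterByExpr with a minimum count of 10, quasi-likelihood) in R 4.3.3, site shares with diffSpliceDGE on sites of at least 5% of the gene, at an adjusted p of 0.05 over all genes or sites. 2.88% of reads stayed outside the gene fit. DESeq2 1.42.0 was an alternative. The scripts were tested on simulated data. Standard errors of log2 changes were derived from the F statistic. The members and the lists were chosen with earlier results of these data known. Named were the 7 genes, their sites of at least 5%, their most read site before the midpoint, antisense sites of at least 10 reads, the 2 largest rises and falls per list that passed, and 2 neighbours per gene; all other genes and sites named were chosen after their values were seen.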

Additional observations from a re-analysis of the deposited data

How the results depend on the processing

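Each result was recomputed with library totals in place of TMM, DESeq2, no filter on low counts, a replicate block, other gene ends, other site minima and terminal regions, and without each library in turn; 510 of 553 values kept their direction and their side of the threshold or, for counts of genes, stayed within 1.5 times the reported count. The same replicate numbers gave correlations of deviations of 0.0481, 0.00890 and 0.0488 between Light and Dark, so the numbers were not treated as pairs, although each Light library correlated best with its own number. Under the replicate block 6211 genes were higher and 5884 lower in Light (6267 and 5966 without it), the FCA upstream difference of 6.08 points passed (adjusted p = 0.0444, diffSpliceDGE), and 1 integrator was lower instead of 2, as with DESeq2. With library totals alone FLK was higher (0.64), and list counts became 17 higher and 1 lower for the partners, 7 higher for the activators, 1 lower for the Polycomb genes, and 1 higher and 1 lower for the integrators. The FCA upstream difference was −6.93 points from the annotated gene end, by construction of that reference, and 2.91 to 8.65 points without single libraries. The FLC upstream difference was −0.52 points from the annotated end (adjusted p = 0.0569, diffSpliceDGE) and −0.58 to −0.46 without single libraries. FVE site usage had adjusted p from 0.00532 to 0.153 (diffSpliceDGE) and integrators lower in Light numbered 1 to 2 without single libraries. FLC antisense reads had −2.84 (adjusted p = 0.0458, edgeR) with no filter. Where no cause is given, the cause was not tested. Genes with changed site usage numbered 2000 to 3777 over the settings, against 2838, and single sites 2803 to 6639, against 4269. Genes with a changed upstream share numbered 114 to 323 higher and 103 to 357 lower, against 268 and 140. Antisense calls at least 200 nt from gene ends numbered 200 higher and 247 lower. FLD, LD and the antisense reads of FLC are limited by depth. An alternative terminal region of 800 nt left too few FLC upstream reads for a test. Site levels, their values with library totals, and the FCA inner and outer groups were added after seeing the data.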
